A study of Pyronema omphalodes CBS 100304 with 6 samples.

Results

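The 3 replicate letters of a circadian RNA-seq experiment on the filamentous ascomycete *Pyronema confluens* were compared with each other: a, b and c, each with 1 library from 24 hr in constant darkness (DD24, the subjective evening) and 1 from 36 hr in darkness (DD36, the subjective morning). Libraries were assigned to a letter by their sample titles, which gave 2 libraries for each letter and took in all 6 of the 6 libraries sequenced. The experiment itself contrasted the 2 times in darkness. Here the time was a covariate and the letter the factor of interest. Each comparison thus asks which genes differed between parallel cultures on average over the 2 times. All cultures were vegetative mycelium of the wild-type isolate CBS100304 in shaken liquid at 25° and 100 rpm. They had at least 24 hr of constant light before darkness, were harvested under red light after the same overall growth time, and were by then in stationary phase. The cultures are described as biologically independent, and no source says how the DD24 and DD36 cultures of 1 letter were related. The *p*-values below therefore measure only the spread between these libraries that is left after letter and time are fitted, moderated by that of all genes. An exact permutation of the letters can give no *p* under 0.167. The submitters' labels list the same isolate as *Pyronema omphalodes*.

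Parallel cultures of a filamentous fungus start from separate mycelial plugs, and in stationary phase they live on remaining nutrients and on their stores. Heat shock proteins fold and disaggregate proteins under stress, permeases take up phosphate, ammonium and purines when these become scarce, and secondary metabolite genes often sit side by side in the genome and are switched on together. Whether differences in culture conditions affected genes of these kinds here was not tested. In a frequency-based fungal clock, the white collar proteins act as transcription factors and the frequency protein closes the feedback loop.

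Counts per library summed to between 806459 and 1132608, and between 8310 and 8945 of 13369 gene models had counts. The study lists many times more mapped reads for each library than these sums, and does not give the reason. The sums are therefore not the sequencing depth. Levels are given as CPM, counts divided by the effective library size, which is the library's sum over the tested genes times its TMM factor. A count of 0 allows up to 3 counts, which corresponds to 2.55 to 4.72 CPM. Such floors, and the binomial intervals below, cover counting error only. For the comparisons 5762 genes were tested with edgeR. Pairs of libraries differed by a chi-square of 2.75 to 18.7 per degree of freedom, and each pair thus differed by more than counting error. The 56 gene models with words for sexual development and meiosis summed to between 2640 and 3360 CPM. They are word matches, and their sums do not by themselves show a tissue other than the labelled vegetative mycelium. These sums were 2640 and 2800 CPM in b, 3060 and 3170 CPM in c, and 2720 and 3360 CPM in a, so that b lay below c while a overlapped both. In edgeR 0 of the 34 tested members passed in any comparison. At an unadjusted *p* under 0.05 there were 0, 2 and 3 in a vs. b, a vs. c and b vs. c. Over all 5762 tested genes, 603, 736 and 695 had such a *p*.

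Letters accounted for more of the variation between libraries than time in darkness did. Over the tested genes the median mean square of log2 CPM was 0.074 for letter, 0.048 for time and 0.05 for the residual. Summed over genes, letter took 50.2% of the sum of squares with 2 degrees of freedom, time 20.7% with 1 and the residual 29.1% with 2. Over the 500 most different genes of a pair, the root mean square log2 difference between the 2 libraries of a letter was 1.06 for c, 1.09 for b and 1.30 for a. For the 6 pairs of different letters at the same time it ran from 1.10 to 1.55, with a median of 1.34. Libraries of c were thus closest to each other, and those of a lay about as far apart as libraries of different letters. In the plot of principal components the first component, with 34% of the variance, put both libraries of c at the positive end, at 16.6 (DD24) and 19.1 (DD36). DD24 a lay at the other end, at -24.7, while DD36 a was at -2.4.

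**Figure D1:**
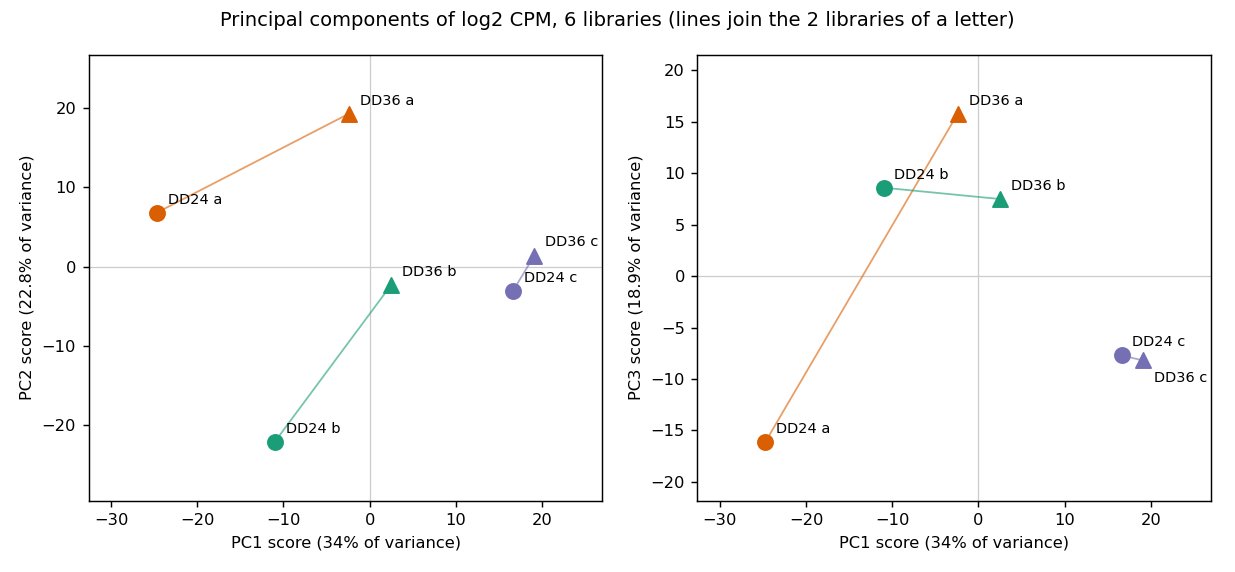
Scores of the 6 libraries on the first principal component (x axis) against the second (left) and the third (right), computed from log2 CPM. Colours mark the letters, circles DD24, triangles DD36, and lines join the libraries of a letter. The 2 libraries of c lie close together at 16.6 and 19.1 on the first component, whereas those of a lie at -24.7 and -2.4.

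A difference between any of the letters passed an adjusted *p* of 0.05 in edgeR's quasi-likelihood test for 217 genes (3.77% of those tested), and 832 had an unadjusted *p* under 0.05. In a vs. b 37 genes passed (0.642%), 10 higher and 27 lower in a. In a vs. c 167 genes passed (2.9%), 83 higher and 84 lower in a. In b vs. c 154 genes passed (2.67%), 99 higher and 55 lower in b. An unadjusted *p* under 0.05 was found for 603, 736 and 695 genes in a vs. b, a vs. c and b vs. c. The 3 comparisons share libraries and are not independent of each other. Median fold changes of the genes that passed were 2.28, 2.51 and 2.19, respectively, and 31, 112 and 92 of them differed at least 2-fold.

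Counts of genes that passed depended on single libraries, and a letter left with 1 library borrowed its spread from the others. In a vs. b 14 genes passed without DD24 b, 16 without DD36 b, 69 without DD24 c, 127 without DD24 a and 202 without DD36 a. In a vs. c 78 passed without DD36 c and 107 without DD24 c, compared with 258 without DD24 a and 262 without DD36 a. In b vs. c 35 passed without DD36 b, 39 without DD24 b, 49 without DD24 c and 98 without DD36 c, compared with 410 without DD24 a and 390 without DD36 a. For any difference the count ran from 119 without DD36 b to 564 without DD36 a, and it was 500 without DD24 a.

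Among the 217 genes, c was the letter farthest from the middle one most often: it was lower in 63 and higher in 54. Letter a was lower in 40 and higher in 20, and b higher in 31 and lower in 9. Letter b had the middle level in 107 of the 217 (49.3%, compared with 36.2% of all genes tested). The deposited product description named no function for 95 of them (43.8%, compared with 29.3% of all genes tested). Libraries of the compared letters did not overlap in CPM for 37 of 37, 165 of 167 and 149 of 154 genes that passed. Over all tested genes they did not overlap in 35.6% (a vs. b), 40% (a vs. c) and 39.2% (b vs. c).

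Differences between letters at DD24 and at DD36 come from different libraries and can be set side by side. Across 5762 genes they correlated at *r* = 0.205 for a - b, 0.282 for a - c and 0.32 for b - c. Genes are not independent replicates, and the points of a comparison share 4 libraries, so that these values are descriptive. Of 230 genes at least 2-fold higher in b than in c at DD24, 187 (81.3%) were also higher in b at DD36, and 42 at least 2-fold. Of 255 genes at least 2-fold lower in a than in b at DD24, 155 (60.8%) were lower in a at DD36, and 36 at least 2-fold. Most large differences at one time were therefore smaller at the other, and the sign was kept in 55.2% to 59.3% of all genes.

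**Figure D2:**
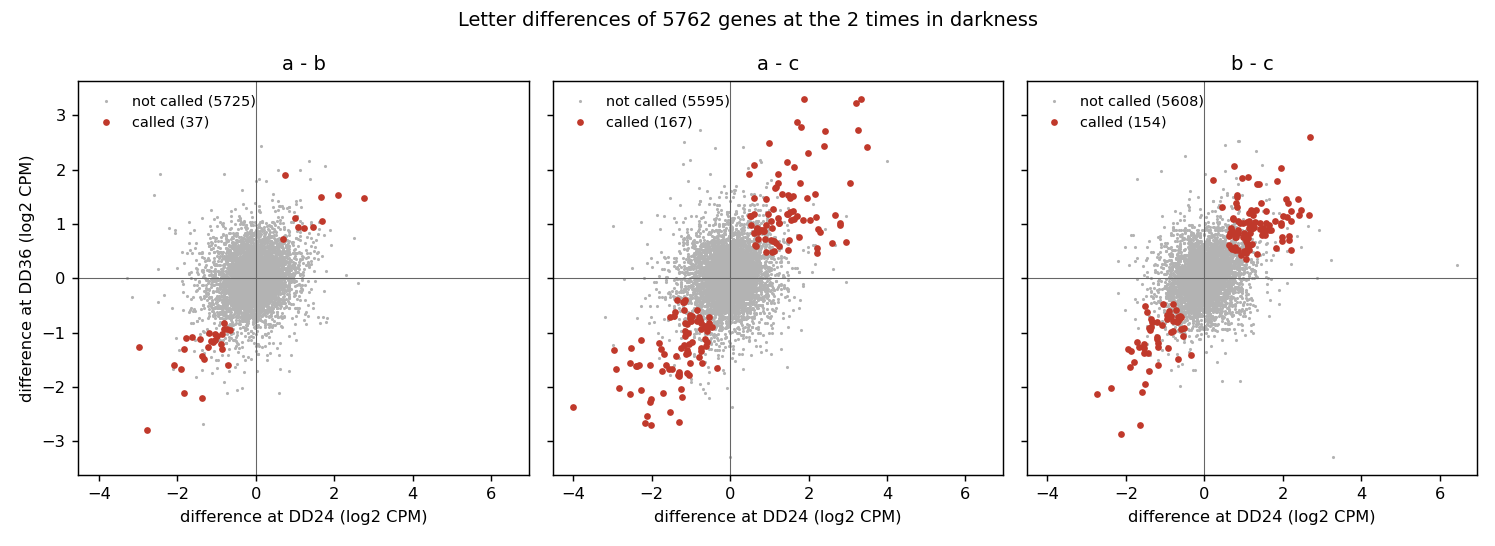
Difference between 2 letters in log2 CPM at DD24 (x axis) and at DD36 (y axis) for each of 5762 genes, for a - b, a - c and b - c. Red points are the 37, 167 and 154 genes that passed an adjusted *p* of 0.05 in edgeR. They lie away from the centre along the diagonal, a position that follows from the fit over both times that selected them. Grey points are all others.

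Heat shock genes were among those higher in c, although most members of their list did not pass. *PCON_01316*, annotated as hsp98, a disaggregase of the Hsp104 class (scaffold 1083, bases 81679 to 84659 of genome version v01_2), was at 1303 (a), 1201 (b) and 4179 CPM (c) in DD24. In DD36 its levels were 1233, 1112 and 3253 CPM. Both libraries of c were above all 4 others, and levels in a and b were alike. The log2 difference was -1.54 ± 0.17 (SE) for a - c and -1.68 ± 0.17 for b - c, with edgeR adjusted *p* of 2.96e-05 and 4.77e-05.

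All 4 tested gene models for 30 kDa heat shock proteins passed as higher in c than in a and in b (1.46% and 0.955% of all genes did). The remaining model of the family had too few counts to be tested, and the family was grouped after its values were seen. These small heat shock proteins bind unfolding proteins. *PCON_10958* (scaffold 566, bases 119602 to 120678) had 261, 409 and 1529 CPM in DD24 a, b and c, and 338, 323 and 1002 CPM in DD36. Its log2 difference was -2.03 ± 0.21 for a - c and -1.78 ± 0.20 for b - c, with edgeR adjusted *p* of 1.69e-05 and 0.000156. The 3 others, *PCON_10956*, *PCON_02808* and *PCON_02801*, differed by log2 -1.20, -0.98 and -0.90 for a - c, and by -0.86, -1.17 and -1.08 for b - c. *PCON_10956* lies on the same scaffold as *PCON_10958*, and *PCON_02801* and *PCON_02808* share scaffold 1330. No source says how reads shared by such similar genes were counted.

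A mitochondrial hsp78 and an hsp70 gene moved in the same direction with smaller differences. *PCON_05004*, a mitochondrial relative of hsp98, had 322, 353 and 505 CPM in DD24 a, b and c, and 192, 221 and 419 CPM in DD36. *PCON_06550*, an hsp70 of the protein folding machinery, had 3112, 2969 and 4698 CPM in DD24, and 2254, 2547 and 4186 CPM in DD36. For each gene c was highest at both times. The edgeR adjusted *p* were 0.00634 (a vs. c) and 0.0248 (b vs. c) for *PCON_05004*, and 0.0177 and 0.033 for *PCON_06550*. *PCON_11855*, an HSP90 homolog, passed in b vs. c, with a log2 difference of -0.80 ± 0.18 and an edgeR adjusted *p* of 0.0217. Its levels in a were 1822 CPM in DD24 and 1203 CPM in DD36, compared with 1073 and 1128 CPM in b and 2035 and 1813 CPM in c. The exception was *PCON_04474*, annotated as heat shock 70 kDa protein 12A, which was lower in c than in b (39.9 vs. 114 CPM in DD24, 54 vs. 95.1 CPM in DD36, edgeR adjusted *p* = 0.00804).

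Of the 50 tested of 63 gene models with chaperone or heat shock words, 0 passed in a vs. b (6 at an unadjusted *p* under 0.05, compared with 603 of all 5762 genes), 7 were lower in a than in c, and 8 were lower and 1 higher in b than in c. The share lower among all genes was 1.46% in a vs. c and 0.955% in b vs. c. Medians of the list were 0.04, -0.07 and -0.04, compared with -0.01, 0.01 and -0.01 over all genes, and most members did not pass. In such bulk samples a lower share of 1 kind of hypha and less RNA per cell cannot be told apart. The summed level of all 63 models was 23000 CPM in DD24 c and 19700 CPM in DD36 c, compared with 12400 to 15500 CPM in the libraries of a and b. Without DD24 c, 4 members were lower in a than in c, and the same count was found when time was left out of the fit. Lower calls in b than in c fell to 2 without DD24 b and to 4 without DD24 c, DD36 b or DD36 c. Calls of *PCON_01316* and *PCON_10958* were kept against both letters under all 12 alternatives tried for single genes.

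Several further single genes were higher in c. *PCON_03998*, annotated as psi1, a DnaJ-type cochaperone in *Schizosaccharomyces pombe*, was at 118, 126 and 244 CPM in DD24 a, b and c, and at 90.1, 84.9 and 211 CPM in DD36. This gene falls outside the word list and was chosen after its values were seen. *PCON_07782*, a sodium transport ATPase that exports sodium ions, was at 39.3, 36.6 and 100 CPM in DD24, and at 33.5, 34.8 and 118 CPM in DD36. Its log2 difference was -1.60 ± 0.23 for a - c and -1.62 ± 0.21 for b - c, with edgeR adjusted *p* of 0.000608 and 0.000512. *PCON_02039*, an L-xylulose reductase of pentose metabolism, was at 255, 250 and 564 CPM in DD24 and at 401, 308 and 710 CPM in DD36. *PCON_09507*, a secreted alkaline protease, was at 9.43, 18.3 and 53.1 CPM in DD24 and at 16.2, 27.2 and 74.2 CPM in DD36. At 9.43 CPM in DD24 a, *PCON_09507* met the filter on low counts through b and c, where it was higher, and its values are a description. For these genes both libraries of c were above the other 4.

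Among the genes of unknown function, *PCON_10959* and *PCON_10965* were higher in c. *PCON_10959*, the direct neighbor of *PCON_10958*, was at 88, 99.2 and 681 CPM in DD24 a, b and c, and at 165, 121 and 534 CPM in DD36. It differed by log2 -2.25 ± 0.23 for a - c and -2.48 ± 0.22 for b - c, with edgeR adjusted *p* of 1.69e-05 and 1.65e-05. *PCON_10965* was at 233, 385 and 1216 CPM in DD24 and at 297, 379 and 918 CPM in DD36. Both genes separated c from a and b without overlap. A halogenase match, *PCON_03510*, was close to the limit of detection in a and b, with 1.57 to 2.31 CPM, and reached 14.5 CPM in DD24 c and 25.6 CPM in DD36 c. From 40 counts in c and 3 in a, c was 10.4-fold above a, with an exact 95% counting interval from 3.32 to 52.7. This gene met the filter on low counts through c alone, so that its ratio is a description, and it was also chosen after its values were seen.

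Genes lower in c included those with annotations for secondary metabolism and for storage carbohydrates. *PCON_03442*, a long gene model (scaffold 1459, bases 3944 to 10451) matching a putative fungistatic metabolite, was at 1413, 1510 and 343 CPM in DD24 a, b and c, and at 846, 1052 and 402 CPM in DD36. The lowest library of a and b was thus above the highest of c. Its log2 difference was 1.54 ± 0.21 for a - c and 1.73 ± 0.21 for b - c, with edgeR adjusted *p* of 0.000319 and 0.00026. *PCON_11419*, a match to copalyl diphosphate synthase, which makes a precursor of diterpenes, was at 53.4, 35.7 and 8.46 CPM in DD24, and at 48.5, 30.6 and 7.33 CPM in DD36. Its direct neighbor *PCON_11420*, a match to ent-kaurene oxidase, a later enzyme of diterpene synthesis in plants and fungi, was at 86.4, 40 and 23 CPM in DD24, and at 113, 67.9 and 14.7 CPM in DD36. Levels of both genes ran in the order a, b, c at both times. The a - c difference was log2 2.68 ± 0.35 for *PCON_11419* and 2.45 ± 0.30 for *PCON_11420*, with edgeR adjusted *p* of 0.00022 and 0.000107. At 8.46 and 7.33 CPM in c, *PCON_11419* met the filter on low counts through a and b, where it was higher. Its *p* is therefore only descriptive.

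Enzymes of the fungal storage carbohydrates glycogen, trehalose and mannitol were lower in c than in b for 3 of 14 tested members. *PCON_04880*, a glycogen phosphorylase that releases glucose phosphate from glycogen, was at 897, 944 and 546 CPM in DD24 a, b and c, and at 921, 867 and 510 CPM in DD36. It was 0.79 ± 0.16 higher in a than in c and 0.78 ± 0.16 higher in b than in c on the log2 scale, with edgeR adjusted *p* of 0.00944 and 0.0118. *PCON_03866*, a trehalose phosphorylase, was at 81.7, 111 and 36.2 CPM in DD24 and at 39.3, 62.8 and 30.2 CPM in DD36. *PCON_01669*, a mannitol-1-phosphate dehydrogenase, was at 817, 1006 and 484 CPM in DD24 and at 430, 478 and 347 CPM in DD36. Both genes were lowest in c at each time, and b and c did not overlap for *PCON_03866* but did for *PCON_01669*. The edgeR adjusted *p* for b vs. c was 0.00404 and 0.0248, respectively.

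The list for trehalose, mannitol and glycogen had 14 tested of 15 models. In b vs. c 3 members were higher in b (1.72% of all genes were), and the median log2 difference was 0.35, with 14 of 14 members above 0. In a vs. c 1 member was higher in a (1.44% of all genes were) and the median was 0.22 (-0.08 with total-count scaling), and in a vs. b 0 passed and the median was -0.18. The 3 calls in b vs. c rested on single libraries: 0 members passed without DD24 b, without DD24 c or without DD36 b, and 0 with time left out of the fit, while 6 passed without DD24 a or without DD36 a.

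Further single genes of different functions were lower in c. *PCON_12352*, an L-threonine dehydrogenase that breaks down threonine, was at 233, 224 and 62.8 CPM in DD24 and at 186, 184 and 87 CPM in DD36. *PCON_03112*, a pyruvate decarboxylase, the entry enzyme of ethanol fermentation, was at 181, 158 and 37.4 CPM in DD24 and at 76.2, 115 and 51.3 CPM in DD36. *PCON_01306*, a match to a polysaccharide deacetylase, was at 209, 237 and 41.1 CPM in DD24 and at 145, 192 and 79.7 CPM in DD36. In each of these 3 genes the libraries of c were the 2 lowest of 6. The edgeR adjusted *p* for b vs. c was 0.000939 for *PCON_12352*, 0.00392 for *PCON_03112* and 0.000822 for *PCON_01306*. An alcohol dehydrogenase-like gene, *PCON_10160*, was in contrast higher in c, at 60.4 and 57.7 CPM in c and at 17.8 to 26.7 CPM in a and b.

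**Figure D3:**
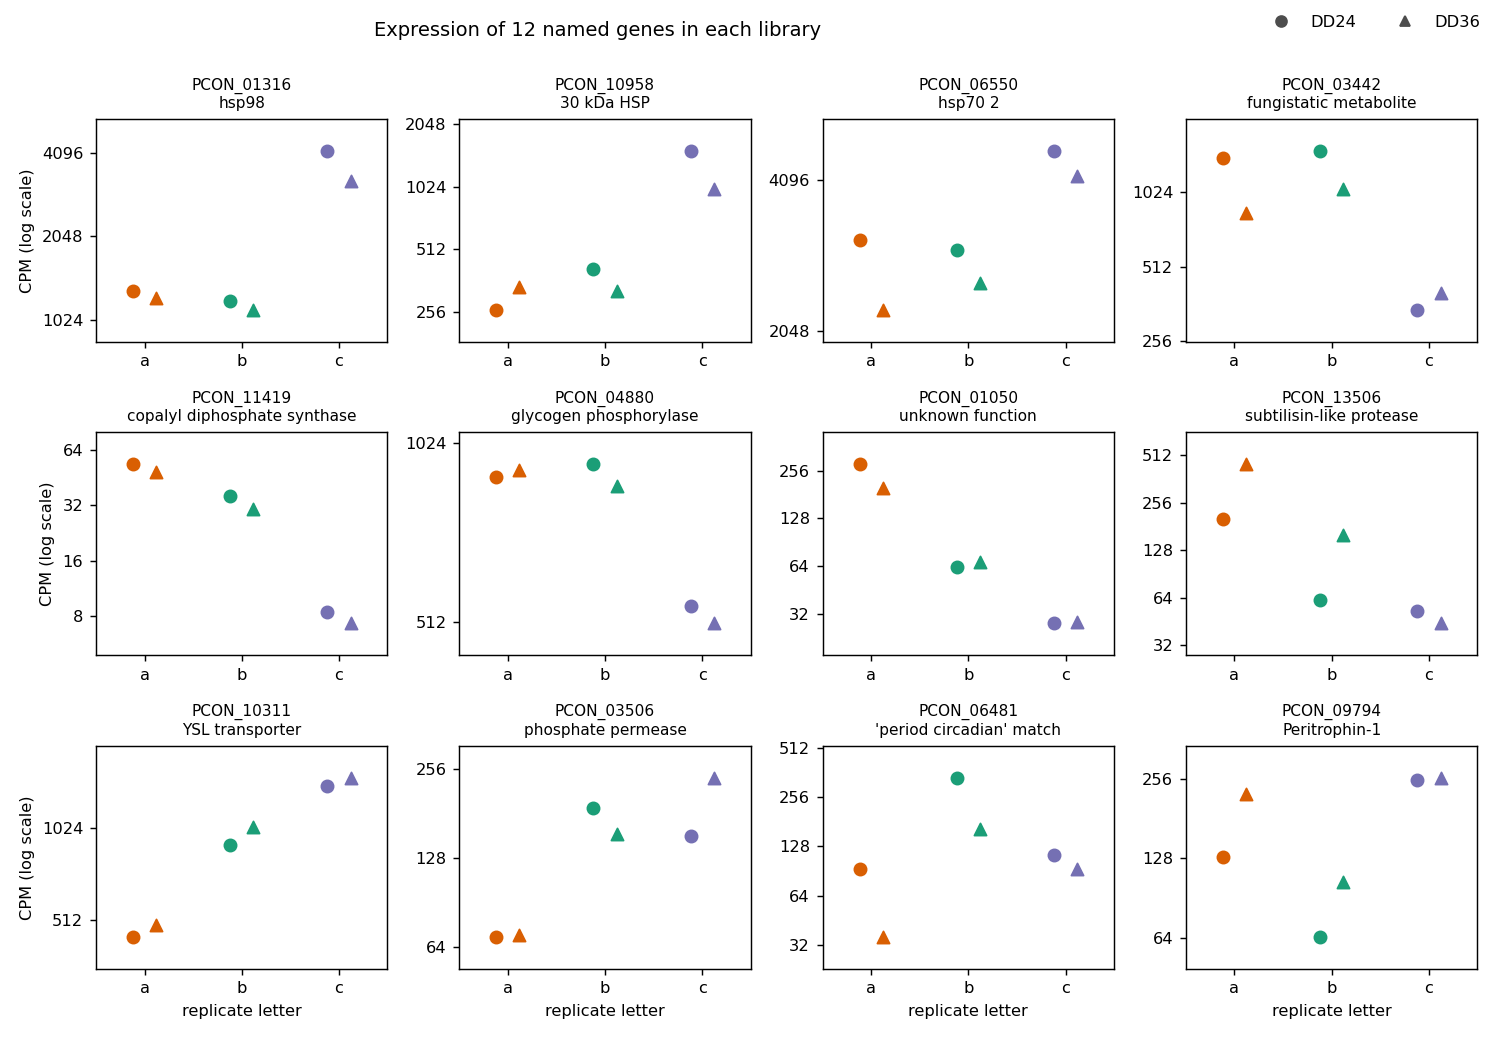
Expression in CPM (log axis, a scale of its own in each panel) of 12 genes in the 6 libraries, by replicate letter on the x axis, with circles for DD24 and triangles for DD36. The upper 2 rows start with heat shock genes highest in c, such as *PCON_01316* with 4179 and 3253 CPM, and go on with genes lowest in c or highest in a. The bottom row shows genes lowest in a, highest in b and lowest in b.

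In 20 of the 217 genes a was the highest letter and the farthest from the middle one. *PCON_01050*, of unknown function (scaffold 1003, bases 173064 to 173825) was at 281, 63.5 and 27.8 CPM in DD24 a, b and c, and at 200, 67.9 and 28.4 CPM in DD36. The 3 letters formed separate levels, and all 3 comparisons passed. Its log2 difference was 1.85 ± 0.19 for a - b, 3.06 ± 0.22 for a - c and 1.21 ± 0.25 for b - c, with edgeR adjusted *p* of 0.000152, 8.78e-07 and 0.0128. *PCON_05991*, also of unknown function, was at 437, 62.7 and 94.2 CPM in DD24 and at 137, 48.4 and 62.3 CPM in DD36. Here a was highest at both times, but its level in DD24 was well above that in DD36.

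Of 76 tested of 104 protease models 5 differed between the letters (3.77% of all genes did), in different directions. *PCON_13505* and *PCON_13506* were highest in a, *PCON_09507* highest in c, *PCON_12365* highest in b and *PCON_01303* lowest in c. List medians were 0.03, 0.01 and -0.03. *PCON_13506*, a subtilisin-like protease (scaffold 861, bases 56733 to 58109), was at 201, 61.8 and 53.1 CPM in DD24 a, b and c, and at 451, 160 and 44 CPM in DD36. It differed by log2 1.57 ± 0.24 for a - b and 2.72 ± 0.27 for a - c, with edgeR adjusted *p* of 0.00259 and 1.69e-05. Its neighbor *PCON_13505*, an extracellular metalloproteinase, was at 34.6, 22.6 and 21.7 CPM in DD24 and at 80.8, 28.9 and 17.4 CPM in DD36. For *PCON_13505* a vs. c passed (edgeR adjusted *p* = 0.0129), and a was highest at both times. *PCON_11422*, a match to solanapyrone synthase of fungal polyketide metabolism, was at 130, 39.2 and 45.9 CPM in DD24 and at 105, 49.2 and 34.8 CPM in DD36. *PCON_01693*, a homolog of the sugar-binding protein cyanovirin-N, was at 72.3, 29.6 and 27.8 CPM in DD24 and at 76.2, 39 and 24.7 CPM in DD36. Both *PCON_11422* and *PCON_01693* separated a from b and from c without overlap.

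A few weakly expressed genes, among them matches to a defensin and to lysozyme, were highest in a and near the limit of detection in c. They were picked out after their values were seen. With 0 to 2 counts in each library of c they met the filter on low counts through the letters where they were higher, so that their values are a description and no test is read from them. *PCON_01608* matched plectasin, a fungal defensin, and was at 34.6, 8.70 and 1.21 CPM in DD24 a, b and c, and at 13.9, 1.70 and 0.916 CPM in DD36. Its 34 counts in a and 2 in c gave a ratio of 21.7, with an exact 95% counting interval from 5.57 to 187. *PCON_03929*, a lysozyme match, had 33 counts in a and 1 in c, and *PCON_09932*, the other lysozyme match, 24 counts in a and 2 in c. These ratios were 42.2 (7.06 to 1.72e+03) and 15.3 (3.81 to 134). *PCON_04464*, a match to a secreted staphylococcal antigen, was at 18.9 and 18.5 CPM in a and had 0 counts in both libraries of c. Against the floor of 3 counts in the shallower library of c (3.62 CPM), a was at least 5.15-fold higher. For all 4 genes the order was a, b, c at both times.

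In 40 of the 217 genes a was the lowest letter and the farthest from the middle one, and single transporter genes were among them. *PCON_10311*, a match to a metal-nicotianamine transporter of the YSL family (scaffold 510, bases 67114 to 69634), was at 451, 901 and 1398 CPM in DD24 a, b and c, and at 492, 1029 and 1494 CPM in DD36. Levels ran in the order a, b, c at both times, without overlap between the letters. Its log2 difference was -1.03 ± 0.16 for a - b and -1.62 ± 0.16 for a - c, with edgeR adjusted *p* of 0.00294 and 1.69e-05. *PCON_13765*, a putative xanthine or uracil permease, was at 89.6, 200 and 179 CPM in DD24 and at 92.4, 210 and 211 CPM in DD36. *PCON_08415*, an ammonium transporter, was at 203, 288 and 367 CPM in DD24 and at 233, 318 and 403 CPM in DD36. The edgeR adjusted *p* for a vs. c was 0.00201 for *PCON_13765* and 0.00687 for *PCON_08415*.

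Among 3 tested gene models for phosphate permeases, a family grouped after its values were seen, 2 were lower in a than in c (1.46% of all genes were). *PCON_03506*, a phosphate permease known from other fungi to be repressed by phosphate, was at 69.2, 190 and 152 CPM in DD24 a, b and c, and at 70.4, 155 and 240 CPM in DD36. *PCON_13624*, the match to the high-affinity transporter PHO84 of yeast, was at 398, 651 and 678 CPM in DD24 and at 458, 700 and 781 CPM in DD36. Libraries of a were the 2 lowest for both genes. Log2 differences for a - c were -1.50 ± 0.23 for *PCON_03506* and -0.77 ± 0.16 for *PCON_13624*, with edgeR adjusted *p* of 0.0011 and 0.0109. The third, *PCON_05628*, did not pass.

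Most members of the lists for nitrogen and for metal and phosphate uptake did not pass. Of 33 tested of 39 models for nitrogen uptake and use, 1 was lower in a than in b (0.469% of all genes were), 3 were lower in a than in c (1.46% of all genes were), and 1 was lower in b than in c (0.955%). List medians were -0.20, -0.31 and -0.11, compared with -0.01, 0.01 and -0.01 over all genes. Of 26 tested of 37 models for metal and phosphate uptake, 1 was lower in a than in b and 2 were lower in a than in c, compared with 0.469% and 1.46% of all genes. In b vs. c 0 passed in edgeR (1 at an unadjusted *p* under 0.05, compared with 695 of all 5762 genes). Their medians were -0.16, -0.19 and -0.12. These lists do not hold *PCON_10311*.

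Several enzyme genes were also lowest in a. *PCON_08688*, a match to tyrosine decarboxylase, which makes tyramine, was at 14.1, 67 and 112 CPM in DD24 and at 28.9, 91.7 and 125 CPM in DD36. *PCON_12188*, an aldehyde dehydrogenase, was at 365, 749 and 865 CPM in DD24 and at 353, 723 and 865 CPM in DD36. Log2 differences for a - c were -2.42 ± 0.26 and -1.27 ± 0.16, with edgeR adjusted *p* of 2.51e-05 and 0.000181. At 14.1 CPM in DD24 a, *PCON_08688* met the filter on low counts through b and c, where it was higher. The *p* of *PCON_08688* is therefore only descriptive. *PCON_14360*, a methyltransferase match, was at 78.6, 200 and 268 CPM in DD24 and at 85.4, 242 and 282 CPM in DD36. In all 3 genes a was lowest at both times and b lay between a and c. *PCON_03489*, a match to a succinate dehydrogenase subunit of the respiratory chain, had 2 counts in a and 50 in b, a ratio of 16.1 with an exact 95% counting interval from 4.24 to 137. With 1 count in each library of a it met the filter through the letters where it was higher, and the ratio is a description. Its a vs. b call was lost in 3 of 11 alternatives, with DESeq2 and without DD24 b or DD36 b. Among 84 tested members for the TCA cycle and respiration no other gene passed in any comparison.

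The description as demethylmenaquinone or trans-aconitate methyltransferase was given to 32 gene models, of which 14 were tested. Of these, 7 differed between the letters (3.77% of all genes did), in different directions. This family was grouped after its values were seen. *PCON_14359*, *PCON_14360* and *PCON_08816* were lowest in a. *PCON_02164*, *PCON_03787* and *PCON_12716* were highest in c, and *PCON_05769* was highest in a. *PCON_02164* was at 18.9, 40 and 120 CPM in DD24 and at 21.9, 43.3 and 103 CPM in DD36.

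In 31 of the 217 genes b was the highest letter and the farthest from the middle one. *PCON_06481* was described by its database match as a period circadian protein, a name given after an animal clock protein, and was at 92.7, 337 and 114 CPM in DD24 a, b and c, and at 35.8, 163 and 92.5 CPM in DD36. Both libraries of b were above the 4 others. It differed by log2 -1.98 ± 0.23 for a - b and 1.20 ± 0.20 for b - c, with edgeR adjusted *p* of 0.00021 and 0.0035. *PCON_11961*, a match to the toxin efflux carrier TOXA, was at 489, 1254 and 567 CPM in DD24 and at 363, 990 and 693 CPM in DD36. *PCON_05797*, an L-amino-acid oxidase that deaminates amino acids, was at 56.6, 124 and 38.7 CPM in DD24 and at 65.8, 101 and 50.4 CPM in DD36. These 2 genes were likewise highest in b at both times.

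Cell wall genes higher in b comprised an endochitinase, which cuts chitin, and 2 chitin synthases, which make it. *PCON_11068*, the endochitinase, was at 101, 238 and 117 CPM in DD24 and at 68.1, 167 and 117 CPM in DD36, with an edgeR adjusted *p* of 0.00259 for a vs. b and 0.0303 for b vs. c. *PCON_05667* (chitin synthase G) was at 78.6, 183 and 96.6 CPM in DD24 and at 85.4, 127 and 62.3 CPM in DD36. *PCON_04752* (chitin synthase D) was at 160, 230 and 143 CPM in DD24 and at 184, 245 and 127 CPM in DD36. Both chitin synthases passed in b vs. c, with edgeR adjusted *p* of 0.0112 and 0.0118. The other 11 of 13 tested chitin synthase models did not pass. Of 55 tested of 65 cell wall models, 1 was lower in a than in b (0.469% of all genes were) and 3 were higher in b than in c (1.72% of all genes were), and list medians were -0.06, 0.06 and 0.07.

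Of 4 tested of 11 tyrosinase models, enzymes of melanin formation, 2 differed between the letters (3.77% of all genes did). The family was grouped after its values were seen. These 2, *PCON_13052* and *PCON_12257*, were highest in b at both times. In the single comparisons 1 member passed, *PCON_13052*, lower in a than in b. The most abundant member, *PCON_01775*, with 9396 counts over all libraries, did not pass. *PCON_13052* was at 9.43, 39.2 and 16.9 CPM in DD24 and at 13.9, 37.3 and 19.2 CPM in DD36. At 9.43 CPM in DD24 a, this gene met the filter on low counts through b and c, where it was higher. Its call is therefore only descriptive. In 9 of the 217 genes b was the lowest letter and the farthest from the middle one. *PCON_02986*, of unknown function, was at 1683, 615 and 1582 CPM in DD24 and at 1553, 806 and 1353 CPM in DD36. *PCON_13915*, also without a named function, was at 107, 49.6 and 115 CPM in DD24 and at 130, 67 and 164 CPM in DD36. Both passed in a vs. b and in b vs. c, without overlap of b with a or c. *PCON_09794*, a Peritrophin-1 match, a protein with chitin-binding domains in insects, was likewise lowest in b, at 130, 64.4 and 255 CPM in DD24 and at 226, 104 and 260 CPM in DD36. Its log2 difference was -1.63 ± 0.20 for b - c, with an edgeR adjusted *p* of 0.000261. A glutathione *S*-transferase, *PCON_04588*, was also lowest in b, at 27 and 35.6 CPM, compared with 52 to 104 CPM in a and c.

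The most abundant transcript separated a from the other letters. *PCON_08583*, annotated as an RNA-dependent RNA polymerase, an enzyme that makes double-stranded RNA in RNA silencing, took 52.2% of all counts in DD24 a (exact 95% binomial interval 52.1 to 52.3%) and 39.3% in DD36 a. In b its share was 34% and 30.7%, and in c 35% and 30.9%. At each time the share was highest in a, by a larger margin in DD24. The log2 difference in CPM was 0.79 ± 0.21 for a - c (edgeR adjusted *p* = 0.0483) and 0.81 ± 0.21 for a - b (edgeR adjusted *p* = 0.101). The a - c call was lost under 6 of 11 alternatives, among them DESeq2 and leaving out DD24 b, DD24 c, DD36 b or DD36 c.

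The assembly also holds 3 bacteriophage gene models, described as external scaffolding protein D, minor spike protein H and capsid protein F, which took 4.14% to 5.13% of the counts. Per 1000 counts of all remaining genes they had 94.8 and 92.3 counts in a, compared with 66.2 to 70.6 in b and c. In a, therefore, both *PCON_08583* and the phage models were higher beside the remaining genes. When both were taken out of the table and the scaling was recomputed, 31, 157 and 143 genes passed in a vs. b, a vs. c and b vs. c. The scaling factor of DD24 a was 0.728, compared with 1.02 to 1.13 in the other libraries. With totals in place of these factors, the median of all genes moved to log2 -0.32 in a - b and -0.30 in a - c, and the split of calls turned to 9 higher and 263 lower in a vs. b, and to 44 higher and 285 lower in a vs. c.

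**Figure D4:**
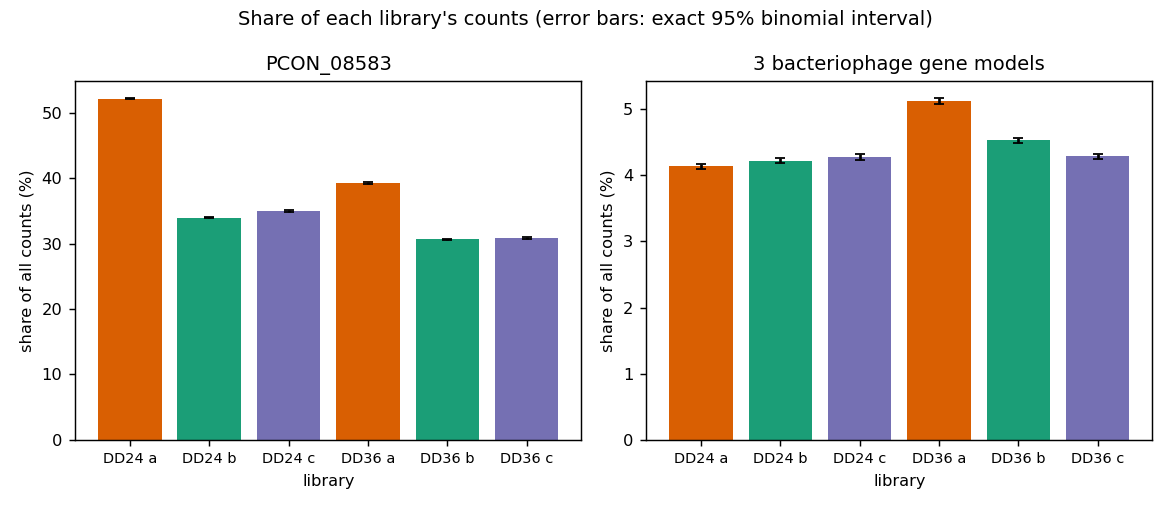
Share of each library's counts in percent (y axis, from 0) for *PCON_08583* (left) and the 3 bacteriophage gene models (right), by library, coloured by letter. Error bars are exact 95% binomial intervals. *PCON_08583* took 52.2% and 39.3% in a and between 30.7% and 35% in b and c.

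Housekeeping lists showed shifts of the median but few calls. Of 83 tested genes for cytosolic ribosomal proteins, 65 were above 0 in a - b, with a median of 0.21 that turned to -0.09 with total-count scaling, where the median of all genes was -0.32. In b - c 9 were above 0, with a median of -0.18 (-0.19 with total-count scaling). In the a - c comparison their median was 0.02. At an unadjusted edgeR *p* under 0.05 there were 16, 2 and 10 of these 83 genes in a vs. b, a vs. c and b vs. c. Of all 5762 tested genes, 603, 736 and 695 had such a *p*. The median differences in a - b and b - c were smaller at DD36 (0.08 and -0.11) than at DD24 (0.28 and -0.25). Members that passed were *PCON_10132*, a 40S protein S19 match lowest in c, and *PCON_02490*, the stalk protein P0, highest in c, whose gene model overlaps a neighbor. The calls of *PCON_02490* were lost in 5 of 12 alternatives in a vs. c and in 7 of 12 in b vs. c, and that of *PCON_10132* in 2 of 12. Ribosome biogenesis genes, 52 tested of 71, had medians of 0.24, 0.03 and -0.22 (-0.05, -0.28 and -0.22 with total-count scaling), and 0 of them passed in edgeR, with 5, 0 and 4 at an unadjusted *p* under 0.05. Both lists thus had lower medians in b than in c under either scaling, with larger differences at DD24. For ribosome biogenesis the b - c median with TMM scaling was -0.37 at DD24 and -0.02 at DD36, so that it rested on DD24. The summed level of this list was 1260 CPM in DD24 b and 1650 to 1840 CPM in the other libraries.

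No member passed in any comparison in the lists for translation factors and tRNA synthetases (71 tested), mitochondrial ribosomal proteins (56), amino acid synthesis (44), autophagy (12), fatty acid breakdown and peroxisomes (49), and DNA replication and histones (43) in edgeR. At an unadjusted *p* under 0.05, these lists had 0 to 5 members in a comparison, or 6 for fatty acid breakdown in b vs. c. Of all 5762 tested genes, 603, 736 and 695 had such a *p* in a vs. b, a vs. c and b vs. c. Their medians lay between -0.09 and 0.11. In 33 tested genes for cytochrome P450s and secondary metabolism, medians were -0.15, 0.07 and 0.38, and 1 gene was higher in a than in c (1.44% of all genes were) and 1 in b than in c (1.72%). At an unadjusted edgeR *p* under 0.05 this list had 4, 7 and 10 members. The 11 genes for RNA silencing had medians of 0.03, 0.40 and 0.30, and 2 passed in a vs. c, *PCON_08583* and *PCON_09614*, compared with 1.44% of all genes. *PCON_09614* was at 787, 614 and 496 CPM in DD24 and at 752, 677 and 499 CPM in DD36. Its call was lost in 6 of 12 alternatives, and it did not pass for any difference between the letters.

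No clock gene passed in any comparison. *frq* (*PCON_09365*), the frequency gene, was at 45.6, 59.2 and 38.7 CPM in DD24 a, b and c, and at 63.5, 75.5 and 55 CPM in DD36. It was highest in b and lowest in c at both times, with a log2 difference of 0.52 ± 0.21 for b - c and an edgeR adjusted *p* of 0.304. The white collar gene *PCON_03119*, for the light-sensing partner of the pair, was at 149, 122 and 90.6 CPM in DD24 and at 103, 114 and 86.1 CPM in DD36, and *PCON_11360*, the match to the helicase that binds the frequency protein, at 50.7 to 62.3 CPM in all 6 libraries. Of the 4 tested of 9 models for light reception and clock, 0 passed in edgeR, with 0, 1 and 2 at an unadjusted *p* under 0.05 in a vs. b, a vs. c and b vs. c. Of all 5762 tested genes, 603, 736 and 695 had such a *p*. *frq* had 29 to 89 counts per library.

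Some genes that differed between letters lay next to each other, which was noticed after their values were seen. Of 171 tested direct neighbors of genes that passed, 12 passed themselves (7.02%, compared with 3.77% of all genes), and they formed 6 pairs. In 5 pairs both genes had the same letter apart in the same direction, and 3 of these were *PCON_10958* with *PCON_10959*, *PCON_11419* with *PCON_11420* (scaffold 604, bases 38640 to 41509 and 42591 to 44514, both on the minus strand) and *PCON_13505* with *PCON_13506*. The methyltransferase genes *PCON_14359* and *PCON_14360* lie 837 bases apart on scaffold 999 on opposite strands. *PCON_02356*, a match to formin-binding protein 4, and *PCON_02357* lie 276 bases apart on scaffold 1221 and were both lowest in c. *PCON_02356* was at 75.4, 129 and 23 CPM in DD24 and at 58.9, 76.4 and 26.6 CPM in DD36. In the remaining pair, *PCON_11848* was highest in a and *PCON_11849* lowest in c.

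Genes that were followed by RT-qPCR in the experiment had been picked for differences between the times in these same libraries, and 5 of 9 differed between letters (3.77% of all genes did). They were *PCON_13506*, *PCON_01669*, *PCON_03866*, *PCON_08647* and *PCON_09693*. *PCON_09693*, a match to a fibrinogen chain, was at 247, 202 and 30.2 CPM in DD24 a, b and c, and at 28.9, 41.6 and 17.4 CPM in DD36. Its high values were confined to DD24 a and b among these libraries, so that DD24 c lay near the DD36 libraries. *PCON_08647*, a membrane protein match, was at 14.1, 46.1 and 15.7 CPM in DD24 and at 5.77, 17.8 and 5.50 CPM in DD36, highest in b at both times. With 5 to 13 counts in the libraries of a and c, *PCON_08647* met the filter on low counts through b. Its values are thus a description. The 4 that did not pass were *PCON_04080*, *PCON_04507*, *PCON_09334* and *PCON_12782*. Of these, *PCON_12782* had 206 counts in DD24 b and 0 to 38 counts in the other libraries.

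**Figure D5:**
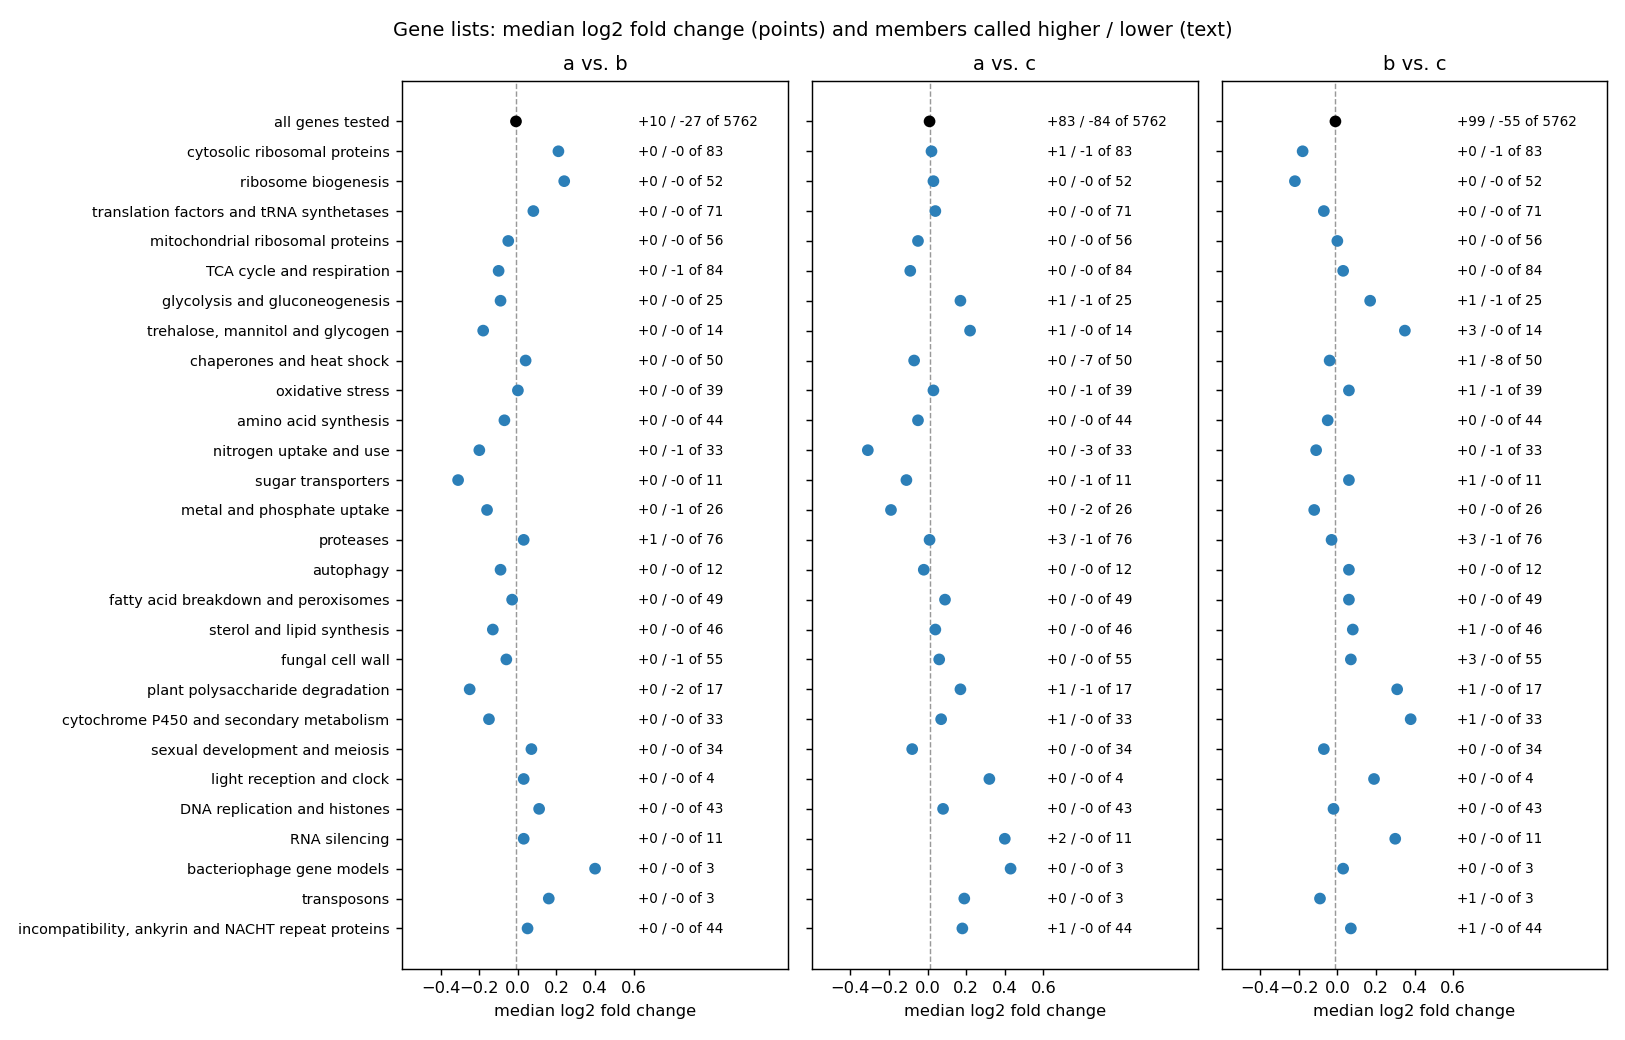
Median log2 fold change (x axis) of the tested members of 27 gene lists and of all genes tested (black point, dashed line), for a vs. b, a vs. c and b vs. c. Text gives the members that passed as higher (+) and lower (-) in the first letter, of those tested. Chaperones have 7 and 8 lower members in a vs. c and b vs. c with medians near 0, whereas the ribosomal protein median of 0.21 in a vs. b, which turns to -0.09 with total-count scaling, goes with 0 members that passed. At an unadjusted edgeR *p* under 0.05 there were 16 of 83 ribosomal protein members in a vs. b.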

How the data were processed

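RNA-seq of 6 libraries was compared, 2 per replicate letter. The deposited table holds raw read counts per predicted gene of genome version v01_2, made by the authors from reads after CASAVA 1.8.2 base calling, per the submitters' processing notes, which also name DESeq. Columns with the authors' own comparisons of the times (fold changes and significance from LOX and DESeq) were not used. The labels give the medium as WPC and the study's methods as minimal medium.

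Letters and times came from the sample titles. Genes were filtered with filterByExpr (letters as groups), scaled with TMM and fitted with edgeR 4.0.16 in R 4.3.3 (robust quasi-likelihood, letter plus time in darkness, 2 residual degrees of freedom). *P*-values were adjusted over all 5762 tested genes (Benjamini-Hochberg, threshold 0.05). Log2 differences are the first letter minus the second, with SE. The scripts were tested on simulated data. Alternatives included DESeq2 1.42.0 and limma 3.58.1 (voom).

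Members and gene lists, chosen by words in the product descriptions, were selected with earlier results of these data known. Genes were named by smallest *p* per comparison and direction without overlap of libraries (10, plus 5 with a named function), by smallest *p* for any difference (10), by the 3 smallest *p* per list, by the 5 highest levels, and as RT-qPCR or clock genes. Genes and families outside this rule were chosen after their values were seen. Sequences were not used here.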

Additional observations from a re-analysis of the deposited data

How the results depend on the processing

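Counts below are given for a vs. b, a vs. c, b vs. c and any difference, in this order, against 37, 167, 154 and 217 genes with the settings of the report. With total-count scaling 272 genes passed in a vs. b, 329 in a vs. c and 414 for any difference. Without a filter on low counts 123, 241, 262 and 389 passed. DESeq2 gave 21, 71, 65 and 88. Leaving the block of time in darkness out of the fit (no replicate block) gave 14, 82, 43 and 89. At an adjusted *p* of 0.1, 63 passed in a vs. b and 254 in b vs. c, and with at least a 2-fold change 92 passed in b vs. c. Fits of only the 4 libraries of the letters compared gave 102 in a vs. b and 404 in b vs. c. Leaving out 1 library at a time gave 14 to 202, 78 to 262, 35 to 410 and 119 to 564. Which cause lay behind these changes was not tested. RLE scaling, limma-voom, estimation without robustness, the filter by time, at least 10 counts in every library and the table without *PCON_08583* and the phage models kept the counts within 1.5 times. Of 157 calls of named genes 0 reversed under any of the alternatives run for them. DESeq2 lost 57 of these calls, total-count scaling 14, limma-voom 6 and RLE scaling 2, and leaving out 1 library lost 6 to 64. Lists with 0 members passing in edgeR for translation factors, mitochondrial ribosomal proteins, ribosome biogenesis, amino acid synthesis, autophagy, fatty acid breakdown, DNA replication, sexual development and clock also had 0 with DESeq2 and with limma-voom. DESeq2 and limma-voom were added for these fold changes after seeing the data. With 2 libraries per letter and 806459 to 1132608 counts per library, of which *PCON_08583* took 30.7% to 52.2%, weakly expressed genes were measured with few counts.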
